A study of Rattus norvegicus with 24 samples.

Results

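The genes described here are 7 subunits of the ionotropic GABA receptors of the rat retina, namely the alpha subunits Gabra4 and Gabra5, the beta subunits Gabrb1 and Gabrb2, the gamma subunit Gabrg1 and the rho subunits Gabrr1 and Gabrr2. They were found on the array by pairing the RefSeq accession of each probe with its gene symbol, which gave 9 probes for these 7 of the 4013 genes that a symbol could be assigned to. Gabrb1 and Gabrr2 had 2 probes each, and the brighter one over all arrays is the one meant unless the second probe is named. The study hybridized retinal RNA of male Sprague Dawley rats to 24 CodeLink rat whole genome arrays, 6 in each of 4 groups. STZ rats had received an intraperitoneal injection of streptozotocin, a toxin of the insulin-producing beta cells, in sodium citrate vehicle after a fast, and control rats the vehicle alone. Only rats with high blood glucose entered the STZ groups, none received insulin, and retinas were taken 1 or 3 months after the injection, each time with control rats of the same age. The rats of the 1 and 3 month sets were raised and killed separately, so age and set cannot be told apart when values of the 2 time points are placed side by side.

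GABA is the main inhibitory transmitter of the inner retina, where amacrine cells release it onto bipolar cell terminals, ganglion cells and each other. Its fast receptors are rings of subunits around a chloride channel. Alpha, beta and gamma subunits combine into GABA-A receptors, with the transmitter bound between alpha and beta and the benzodiazepine site between alpha and gamma. Receptors made of rho subunits, once called GABA-C receptors, are slow and sustained and not blocked by bicuculline, and these are best known from the axon terminals of retinal bipolar cells. Gabra4 and Gabra5 are alpha subunits that often take part in receptors outside synapses, which carry tonic inhibition.

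Several of these genes lie next to each other. In the RefSeq annotation of the rat genome (GRCr8), Gabrb1 and Gabra4 are neighbours on chromosome 14, followed by Cox7b2, Gabra2 and Gabrg1, while Gabrr2 and Gabrr1 are neighbours on chromosome 5. Gabra5 follows Gabrg3 on chromosome 1, and Gabrb2 follows Gabra6 on chromosome 10. The 250 bases before the annotated start were read for all 7 genes from RefSeq promoter sequences of GRCr8. They are printed for Gabra4 and Gabrg1, which had the largest differences of opposite direction at 3 months and belong to the same cluster, and for the neighbouring rho genes. Each runs 5′ to 3′ on the strand of its gene, and capitals mark matches to any of 4 motifs searched on both strands (TATA box TATAAA, GC box GGGCGG, CRX-type homeodomain core TAATCC and CRE half-site TGACG), of which no matches overlapped.
Gabra4, chr14:36944497-36944746, plus strand: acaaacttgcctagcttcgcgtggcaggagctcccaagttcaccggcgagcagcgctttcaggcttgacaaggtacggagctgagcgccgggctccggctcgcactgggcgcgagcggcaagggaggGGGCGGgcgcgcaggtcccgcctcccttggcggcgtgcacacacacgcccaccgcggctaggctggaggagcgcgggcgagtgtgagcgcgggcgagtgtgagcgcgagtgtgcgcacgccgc
Gabrg1, chr14:37750042-37750291, plus strand: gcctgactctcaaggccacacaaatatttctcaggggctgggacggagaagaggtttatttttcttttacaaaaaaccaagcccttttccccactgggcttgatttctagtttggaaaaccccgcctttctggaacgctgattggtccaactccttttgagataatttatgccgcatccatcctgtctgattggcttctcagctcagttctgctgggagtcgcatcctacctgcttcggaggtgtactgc
Gabrr1, chr5:52320225-52320474, plus strand: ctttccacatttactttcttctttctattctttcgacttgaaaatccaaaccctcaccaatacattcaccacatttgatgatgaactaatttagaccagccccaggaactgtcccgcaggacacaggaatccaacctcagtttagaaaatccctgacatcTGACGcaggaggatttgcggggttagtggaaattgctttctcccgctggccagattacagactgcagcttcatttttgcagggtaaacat
Gabrr2, chr5:52248228-52248477, plus strand: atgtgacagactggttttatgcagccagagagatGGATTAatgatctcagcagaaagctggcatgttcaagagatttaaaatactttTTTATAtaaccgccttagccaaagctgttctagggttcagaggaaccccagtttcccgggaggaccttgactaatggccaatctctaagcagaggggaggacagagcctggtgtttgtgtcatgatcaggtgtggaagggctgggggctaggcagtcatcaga

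The 2 cluster members differed in base composition, with 71.6% G and C before Gabra4 and 48.4% before Gabrg1, beside a median of 51.2% over the 33469 promoters in the table. The window of Gabra4 held 1 GC box, found in 30.47% of all promoters, and that of Gabrg1 held none of the 4 motifs. Among the rho genes, Gabrr2 held 1 TATA box on the minus strand (12.93% of promoters) and 1 CRX-type core (6.34%), and Gabrr1 held 1 CRE half-site (18.22%). Of those not printed, Gabra5 had 76.4% G and C with 1 GC box, and Gabrb1 (49.2%) and Gabrb2 (43.2%) held no match. These matches describe the letters of the window only.

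Levels are given as log2 of the background-subtracted intensity relative to the median rat probe on the same array, so that 0 is the middle of an array. A probe was tested when its median over the 24 arrays passed a detection limit of -0.85 on this scale, the 35th percentile of all probes. Of the 7 genes 6 were tested, on 7 of the 9 probes; Gabrb2 and the second probe of Gabrb1 were too dim. Probes are not compared with each other in level, since their brightness depends on the probe. Some features of the arrays bear on what follows. The spread of the rat probes within an array, as the interquartile range in log2 units, ran from 3.36 to 3.67 at 1 month, and at 3 months from 1.48 to 2.23 in controls and from 2.07 to 2.70 in STZ retinas. The median of all 22025 tested probes was 0.44 higher in STZ than in control retinas at 3 months and 0.01 higher at 1 month. The array 3 month control 2 stood apart, since its correlations with the rest of its group had a median of 0.842, against 0.957 for the next lowest.

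At 3 months of diabetes, 4 of the 6 tested subunit genes were higher in STZ retinas (Gabra4, Gabra5, Gabrb1 and Gabrr2), 1 was lower (Gabrg1) and Gabrr1 did not pass the test. A call required a Benjamini-Hochberg adjusted p under 0.05 over all probes in limma and at least a 1.2-fold difference. These counts have to be read against the whole array, of which 50.5% of the tested probes were called higher and 3.55% lower, 54.1% in all, so 4 of 6 higher is near the background. By the unequal-variance test of the study's methods (unadjusted p under 0.01 and 1.2-fold), Gabra4, Gabra5 and Gabrb1 were higher and no member lower, where 15.8% of probes were higher and 1.13% lower. The median difference of the 6 genes, 0.42, was also close to the 0.44 of all tested probes. The single values lay on both sides of that median. Gabra4 rose 0.70 more than the median probe, Gabra5 0.24 more, Gabrr2 0.02 more and Gabrb1 0.07 less, while Gabrg1 lay 1.29 under it. When the spread of each array was added to the model as a covariate, none of the 6 genes was called, nor was any of the 22025 probes; spread and group overlapped little at 3 months. At 1 month none of the 6 genes was called in limma and none had an unadjusted p under 0.05, where 0.00908% of probes were called and 4.21% had such a p. The methods' test called none either, against 1.19% of probes.

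**Figure D1:**
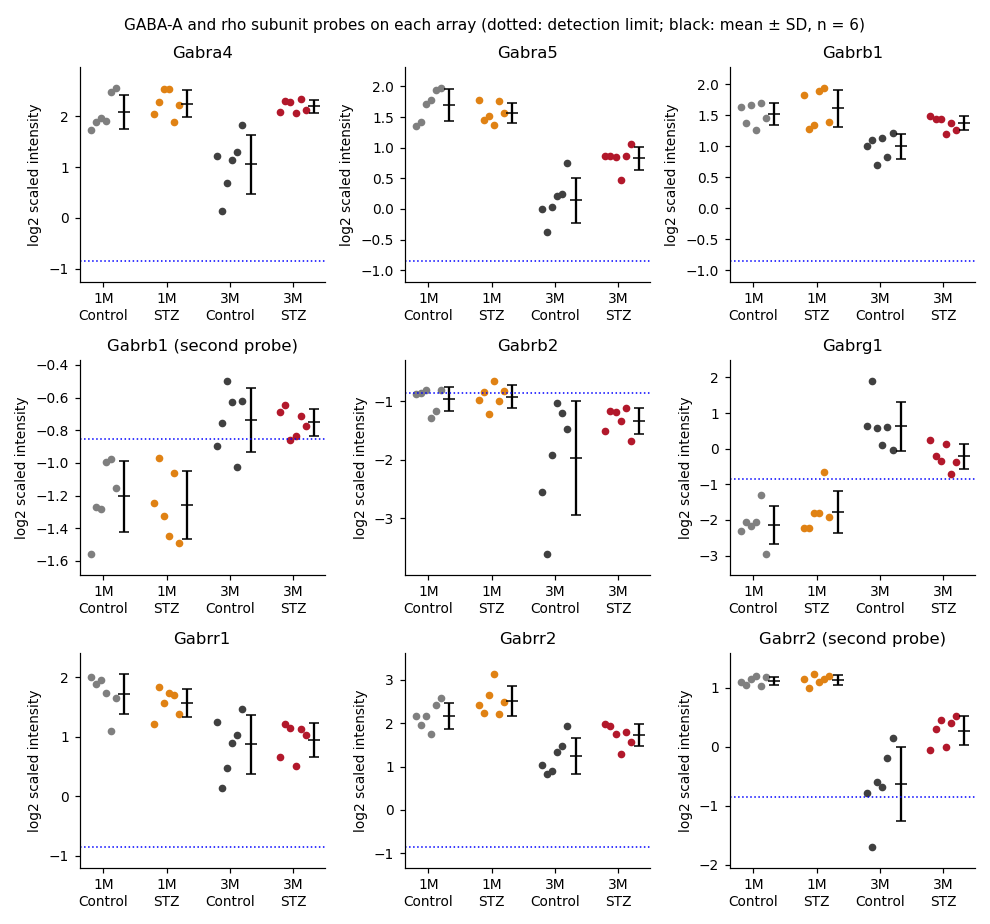
Log2 scaled intensity of the 9 probes on each of the 24 arrays (points, in replicate order), with the mean and SD of each group of 6 (black) and the detection limit (dotted line). At 3 months the STZ points of Gabra4 lie above all control points, those of Gabrg1 lie mostly below them, and those of Gabrr1 lie within the range of the controls.

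Gabra4 had the largest rise of the group. Its level in control retinas at 1 month had a low of 1.73, a median of 1.93 and a high of 2.56, and in STZ retinas 1.88, 2.25 and 2.55. At 3 months the control values were 0.14, 1.17 and 1.84 (lowest, median, highest) and the STZ values 2.06, 2.20 and 2.34. The 6 STZ arrays all lay above all 6 control arrays at 3 months, and arrays of the groups did not overlap for 10.2% of tested probes at that time. At 1 month the groups overlapped, as they did for all but 0.545% of probes. The difference between STZ and control was 1.15 ± 0.20 (SE, n = 6 against 6) at 3 months, a 2.21-fold higher intensity, with an adjusted p of 0.000267 in limma. At 1 month it was 0.17 ± 0.20 (adjusted p = 1 in limma). The effect at 3 months exceeded that at 1 month by 0.98 ± 0.29 (limma interaction, adjusted p = 0.0321), which was not called when 1 month control 5 or 6, 3 month control 3 or 3 month STZ 5 or 6 was left out. In the order of the group means the 3 month controls came lowest and the 3 month STZ retinas lay between the 1 month controls and the 1 month STZ retinas, with each group overlapping its neighbour in the order. The control mean was 1.03 lower at 3 months than at 1 month and the STZ mean 0.05 lower.

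The 3 month control values of Gabra4 had an SD of 0.58, against 0.12 in the STZ group. The lowest control was the array that stood apart, control 2, at 0.14, and without it the difference was 0.96 with an adjusted p of 0.000422 in limma. The highest control, control 6 at 1.84, was also the control array with the widest spread, 2.23. The call of Gabra4 at 3 months held with any of the 24 arrays left out and in 17 of 18 other settings. Not all of these settings are separate checks. Dropping the fold limit or averaging the probes of a gene does not alter the difference of Gabra4, which has a single probe. The series-level table repeats the deposited normalized intensity. The setting that ended the call had array spread as a covariate, where the difference was 0.83 with an adjusted p of 0.543 in limma. After quantile normalization, which gives all arrays the same spread, it was 0.78 (adjusted p = 0.0074 in limma), while the median of all tested probes was 0.16 higher in STZ retinas.

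Gabra5, an alpha subunit known for tonic and extrasynaptic receptors, was also higher at 3 months. Its 3 month control values were -0.37, 0.12 and 0.75 (lowest, median, highest) and its STZ values 0.48, 0.86 and 1.05. Of the 6 STZ arrays 5 lay above every control, and STZ 4, at 0.48, lay below the highest control. The difference was 0.68 ± 0.16 (SE), a 1.61-fold higher intensity (adjusted p = 0.00163 in limma). At 1 month the control values were 1.35, 1.75 and 1.97 and the STZ values 1.37, 1.54 and 1.77, and these groups overlapped with a difference of -0.13 ± 0.16 (adjusted p = 1 in limma). The 2 effects differed by 0.81 ± 0.22 (limma interaction, adjusted p = 0.0282), a call lost without 3 month control 3 or 3 month STZ 5 or 6. Both 3 month groups were below both 1 month groups in mean. The control mean was 1.55 lower at 3 months, the largest fall with time among the main probes, and no control value of one time lay within the range of the other, which was the case for 38.3% of tested probes. Against a stricter mark of detection, the 95th percentile of an array's bacterial probes, the 3 month signal was higher on 0 of the 6 control and all 6 STZ arrays. With array spread as a covariate the difference was 0.32 (adjusted p = 0.667 in limma), and after quantile normalization 0.66 (adjusted p = 0.00488 in limma).

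Gabrb1, a beta subunit, which contributes to the GABA binding site, showed the smallest called rise. The 3 month control values were 0.70, 1.05 and 1.22 and the STZ values 1.203, 1.41 and 1.49 (lowest, median, highest). Again 5 of 6 STZ arrays were above every control, with the lowest STZ value just under the highest control. The difference of 0.37 ± 0.14 (SE), 1.29-fold, had an adjusted p of 0.0284 in limma, and it was -0.03 after quantile normalization (adjusted p = 0.869). The call was also lost without 3 month control 3 or 5 or 3 month STZ 1, 2 or 3, with adjusted p-values up to 0.0773 in limma. At 1 month the control values were 1.27, 1.54 and 1.69 and the STZ values 1.28, 1.61 and 1.93, with a difference of 0.10 ± 0.14. The effects of the 2 times were not shown to differ (0.27 ± 0.20, limma interaction, adjusted p = 0.275). The second probe of Gabrb1 was above the detection limit on none of the 12 arrays of 1 month and on 4 control and 5 STZ arrays of 3 months. Its means were -1.21 and -1.26 in the 1 month control and STZ retinas and -0.74 and -0.75 in those of 3 months, without a test.

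Gabrb2, the other beta subunit, could not be measured well with its probe. It was above the detection limit on 2 of 6 control and 3 of 6 STZ arrays at 1 month and on none at 3 months. Group means were -0.96, -0.92, -1.97 and -1.33 in the control and STZ retinas of 1 month and then of 3 months. No fold is given for values below the limit.

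Gabrg1, a gamma subunit, was the only gene of the group called lower at 3 months. Its 3 month control values were -0.05, 0.60 and 1.89 (lowest, median, highest) and its STZ values -0.72, -0.27 and 0.23. Of the 6 STZ arrays 4 lay below every control, and the remaining 2 fell within the range of the controls. The difference was -0.84 ± 0.29 (SE), a 1.79-fold lower intensity in STZ retinas, with an adjusted p of 0.017 in limma. Without control 2, which gave the highest value at 1.89, it was -0.59 and no longer called (adjusted p = 0.0676 in limma). It was the sole array of the 24 whose omission ended this call.

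The Gabrg1 probe was dim, and its level moved with the spread of the arrays. At 1 month it was above the detection limit on 0 of 6 control and 1 of 6 STZ arrays, so no fold is given for that time. The 1 month control values were -2.95, -2.11 and -1.31 and the STZ values -2.24, -1.86 and -0.65. All 6 control arrays of 3 months were above the limit, and the 6 of 1 month, all below it, give no measured level to set against them. The 3 month signal exceeded the bacterial 95th percentile on 4 control arrays and on 0 STZ arrays. The interaction, -1.21 ± 0.41 (limma, adjusted p = 0.0447), rests on 1 month values that lie below the limit in 11 of 12 arrays, so that it does not compare 2 measured effects, and it was not called in 16 of the 24 fits with 1 array left out. Gabrg1 belongs to the 5567 tested probes with a mean between -1 and 0 over all arrays. Of these 11.6% were called lower and 21.6% higher at 3 months, with a median difference of 0.07. Of those with a mean of 3 or more 0% were called lower and 81.1% higher. With array spread as a covariate the difference of Gabrg1 at 3 months was -0.10 (adjusted p = 0.955 in limma), and after quantile normalization it was -1.23 (adjusted p = 0.00579 in limma).

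**Figure D2:**
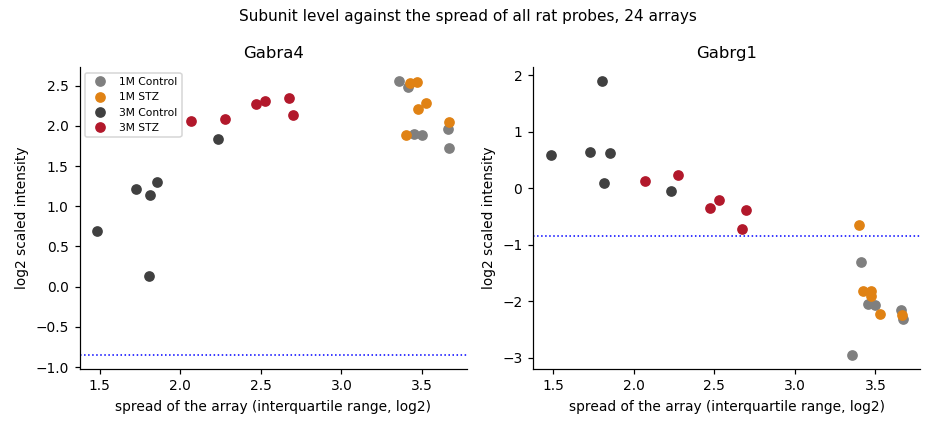
Log2 scaled intensity of Gabra4 (left) and Gabrg1 (right) against the interquartile range of all rat probes on the same array, for the 24 arrays, with the detection limit dotted. At 3 months the controls have the narrower arrays (1.48 to 2.23) and the STZ retinas the wider ones (2.07 to 2.70). Gabrg1 is lower on the wide arrays of 1 month than on those of 3 months, with 1 exception. The value of 1 month STZ 5 (-0.65) lies above that of 3 month STZ 5 (-0.72). Gabra4 is lower on the 3 month control arrays than on all others of 3 months.

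Of the rho subunits, Gabrr1 did not pass the test at either time. Its 3 month control values were 0.13, 0.96 and 1.48 and its STZ values 0.52, 1.08 and 1.21 (lowest, median, highest), so that the STZ range lay inside that of the controls. The difference was 0.08 ± 0.20 (SE; 95% interval -0.33 to 0.48; adjusted p = 0.753 in limma). This lay 0.37 under the median of all tested probes, and the sign turned without control 2 (-0.07) or after quantile normalization (-0.21). At 1 month the control values were 1.10, 1.81 and 2.01 and the STZ values 1.21, 1.64 and 1.84, with a difference of -0.15 ± 0.20 and an interval of -0.56 to 0.25. The control mean was 0.85 lower at 3 months. The STZ retinas of the 2 times did not overlap, by a narrow gap (highest 1.2139 at 3 months, lowest 1.2148 at 1 month). Among the tested member probes the same held for Gabra5 and both probes of Gabrr2. The share of all tested probes without such overlap is not given here.

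Gabrr2 was called higher at 3 months by both of its probes, though by unequal amounts. With the main probe, the control values were 0.83, 1.18 and 1.93 and the STZ values 1.29, 1.77 and 1.98. The 2 groups overlapped, with 2 of 6 STZ arrays above every control, and the difference was 0.47 ± 0.19 (SE), 1.39-fold (adjusted p = 0.0383 in limma). This call was lost without control 2 (0.39, adjusted p = 0.1 in limma), without 3 month controls 1 or 3 or 3 month STZ 1, 2, 3 or 5, and after quantile normalization (0.05, adjusted p = 0.831). At 1 month the control values of this probe were 1.76, 2.16 and 2.58 and the STZ values 2.21, 2.44 and 3.13, with a difference of 0.34 ± 0.19 and an unadjusted p of 0.0797 in limma, the lowest among the members at that time.

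The second probe of Gabrr2 had 3 month control values of -1.69, -0.63 and 0.15 and STZ values of -0.06, 0.36 and 0.52. The difference was 0.90 ± 0.19 (adjusted p = 0.000935 in limma), and 4 of 6 STZ arrays lay above every control. At 1 month its values ran from 1.03 to 1.198 in control and from 0.99 to 1.23 in STZ retinas, a difference of 0.02 ± 0.19. The 2 probes disagreed on the change of effect with time, which was 0.88 ± 0.27 with the second probe (limma interaction, adjusted p = 0.0356, not called in 9 of the 24 fits with 1 array left out) and 0.13 ± 0.27 with the main one (adjusted p = 0.72). The second probe was under the bacterial 95th percentile on all 12 arrays of 3 months, and the main probe was above it on all 12.

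**Figure D3:**
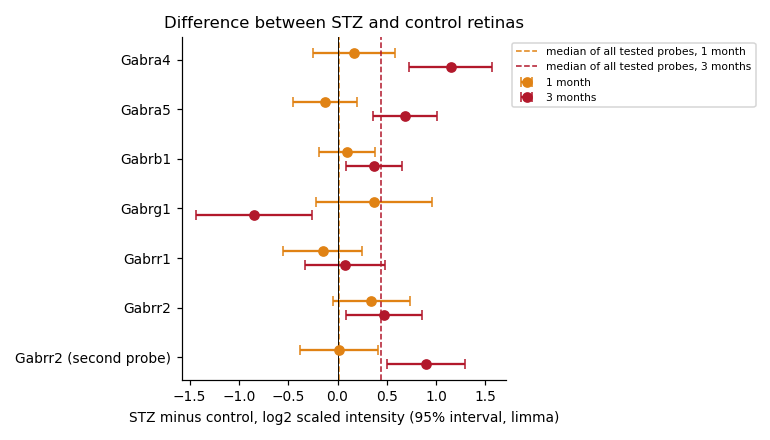
Difference between STZ and control retinas in log2 scaled intensity at 1 month (orange) and 3 months (red) for the 7 tested probes, with 95% intervals from limma and dashed lines at the median of all tested probes (0.01 and 0.44). The whole 3 month intervals of Gabra4 and the second Gabrr2 probe lie right of the 3 month median line, Gabrg1 and the interval of its 3 month difference lie left of 0, and all 1 month intervals include 0. The 1 month point of Gabrg1 rests on values below the detection limit on 11 of 12 arrays.

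The effect of STZ thus differed between 3 months and 1 month for Gabra4 and Gabra5 by the limma interaction, upward in both. The median interaction of all tested probes was 0.44, and Gabra4 and Gabra5 lay 0.54 and 0.37 above it. The interaction of Gabrg1 also passed, downward, but against 1 month values below the limit. Of all tested probes 15.5% were called, 14.8% in the upward direction and 0.731% in the downward one. The dependence on single arrays was stronger here than for the 3 month differences. None of the 3 interactions was called without 3 month control 3, without 3 month STZ 5 or without 3 month STZ 6, and 1 was without 1 month control 6. After quantile normalization over all arrays that of Gabra4 was not called (0.62, adjusted p = 0.19 in limma) and that of Gabra5 was (0.79, adjusted p = 0.0388). After normalization within times neither was called (adjusted p = 0.214 and 0.0703 in limma). With array spread as a covariate both had an adjusted p of 0.912.

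Levels of the control retinas also differed between the 2 sets of rats. The mean of the controls was lower at 3 months for Gabra4 (1.05 against 2.09), Gabra5 (0.14 against 1.70), Gabrb1 (1.00 against 1.51), Gabrr1 (0.88 against 1.73) and Gabrr2 (1.25 against 2.17). For Gabrg1 the controls were above the detection limit at 3 months alone. Control arrays of the 2 times did not overlap for Gabra5 and Gabrb1, nor for the second probe of Gabrr2. Of all tested probes 38.3% had control arrays that did not overlap and in 30.1% the 3 month ones were lower. In the means of the 4 groups the 3 month controls came lowest for each tested member other than Gabrg1.

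To find out how the rest of the GABA system fared on the same arrays, 53 genes in 6 lists were examined, of which 35 had a probe that could be matched to their symbol and 29 were tested. At 3 months 17 were called higher and 2 lower, and their median difference was 0.56, beside 0.44 for all tested probes. None was called at 1 month in limma. A share of 17 in 29 lies near the 50.5% of all probes called higher. The counts of the single lists below are to be read against this share and the 3.55% called lower.

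Among the other GABA-A and rho subunits, 2 of 6 tested genes rose at 3 months and none fell. These were Gabra3, an alpha subunit (0.65 ± 0.18 SE, adjusted p = 0.00613 in limma), and Gabrg3, a gamma subunit (0.43 ± 0.14, adjusted p = 0.0162). Their 3 month control means, -1.28 and -0.91, lay under the detection limit of -0.85, so the sizes of these rises are uncertain. The STZ means were -0.63 and -0.48. The median of these 6 genes was 0.29. Gabrg3, the neighbour of Gabra5 on its chromosome, was thus called. Its difference was no larger than the median of 0.44 of all tested probes, of which 50.5% were called higher. A link between neighbouring genes was not tested.

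Of the genes for proteins that hold GABA-A receptors at the synapse or carry them to the membrane, 6 of 8 tested rose. Their median was 0.49, near the 0.44 of all tested probes. Nlgn2, neuroligin 2, an adhesion protein of inhibitory synapses, led with 0.85 ± 0.19 (adjusted p = 0.00114 in limma). After quantile normalization Nlgn2 was at 0.30 and not called (adjusted p = 0.154 in limma). Gphn, the scaffold gephyrin, rose by 0.35, less than the median of all tested probes. The trafficking proteins Hap1, Ubqln1 and Gabarap rose by 0.77, 0.64 and 0.56. Plcl1, which binds GABA-A receptors and phosphatases, had the lowest value of the list at 0.31 and was not called.

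Of the chloride transporters and channels, on which the direction of the GABA current depends, 2 of 4 rose and 1 fell. Slc12a5, the neuronal chloride extruder KCC2, rose by 0.83 ± 0.26 (adjusted p = 0.0108 in limma) and the chloride channel Clcn2 by 0.67. After quantile normalization neither was called (0.14 and 0.43, adjusted p = 0.642 and 0.0683 in limma). Slc12a4, the more widely expressed transporter KCC1, fell by 0.43 (adjusted p = 0.0376 in limma). Its probe was dim at 1 month, with means of -1.93 and -2.01 in control and STZ retinas, as that of Gabrg1 was. Of the 2 tested GABA-B receptor genes Gabbr2 rose by 0.57, and Gabbr1 had a difference of -0.51 that did not pass (adjusted p = 0.154 in limma). Without 3 month control 2 Gabbr1 was at -0.20. It was called after quantile normalization over all arrays (-0.95, adjusted p = 0.0387 in limma) but not within times (-0.89, adjusted p = 0.0758).

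Genes for GABA synthesis, release, uptake and breakdown gave 5 of 7 higher and 1 lower. Slc6a11, the GABA transporter GAT3, had the largest difference of all 6 lists, 2.36 ± 0.30 (SE, adjusted p = 2.57e-05 in limma), with a mean of 0.62 ± 0.39 (SD, n = 6) in control and 2.97 ± 0.52 in STZ retinas. The transporters Slc6a12 and Slc32a1 (the vesicular GABA transporter) rose by 0.78 and 0.67, and Gad1, a GABA-synthesizing enzyme, by 0.57. Abat, the GABA transaminase that degrades GABA, was lower by a difference of -0.45 (adjusted p = 0.0295 in limma). Of the glycine receptor genes Glra3 rose by 0.57 and Glra2 was at -0.14, not called, which made 1 of 2. The called pathway genes fell from 19 to 9 after quantile normalization, to 12 without control 2 and to 0 with array spread as a covariate. The named genes that lost their call after quantile normalization were Nlgn2, Hap1, Ubqln1, Gabarap, Gphn, Slc12a5, Clcn2, Gabbr2, Slc32a1 and Gad1. Of the genes named, Gphn lost its call in 9 of the 24 fits with 1 array left out, Slc12a4 in 7, Gad1 in 5, Abat in 4, and Gabarap and Slc32a1 in the 1 without control 2.

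**Figure D4:**
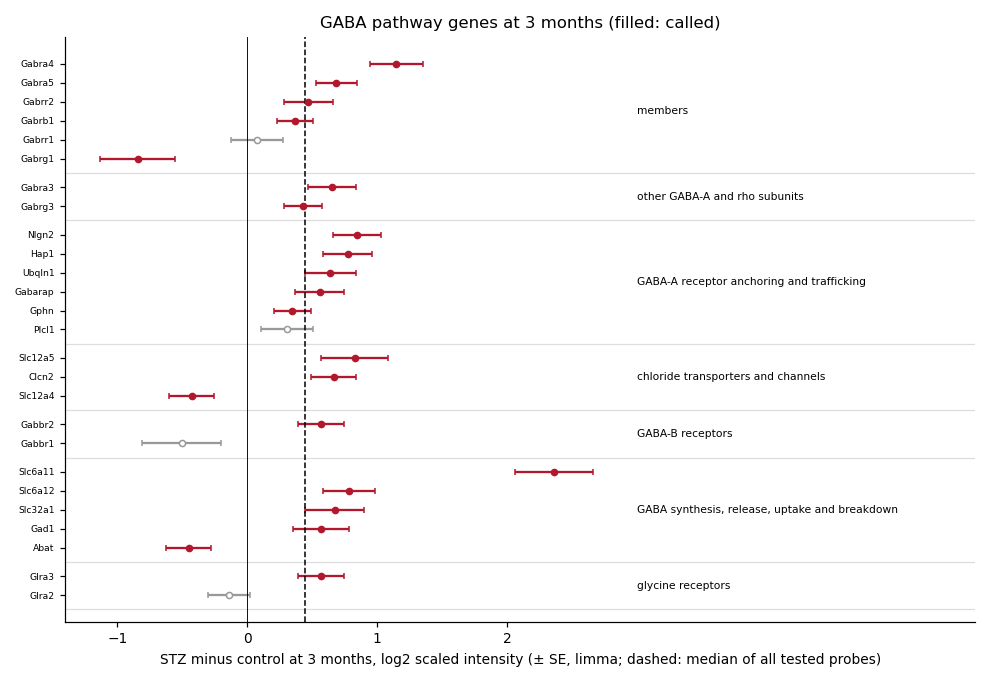
Difference between STZ and control retinas at 3 months in log2 scaled intensity (± SE, limma) for the tested members and the genes of the 6 other lists that the text names, filled where called, with a dashed line at the median of all tested probes (0.44). Slc6a11 lies far to the right of all others at 2.36, and Gabrg1 (-0.84), Slc12a4 (-0.43) and Abat (-0.45) are the called genes left of 0.

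Whole retina was measured, so that fewer cells of a type and less RNA per cell cannot be told apart. Markers of other retinal cells were called at 3 months in shares to be read against the 50.5% of all tested probes called higher. The amacrine list (7 of 10 genes with a probe matched to their symbol, all above the detection limit, with Gad1 and Slc32a1 among the listed genes) had 5 called higher, and its summed scaled intensity ran from 24.3 to 61.6 in control and from 49.4 to 75.3 in STZ retinas. That of the Mueller glia list (6 of 7 with a probe, Aqp4 dim, 3 called higher) ran from 48.0 to 135 and from 133 to 178. The ganglion cell list (5 of 9 with a probe, Thy1 dim, 2 called higher) ran from 15.3 to 31.0 and from 23.9 to 37.0. For bipolar cells a probe could be matched to the symbol of Grm6 alone among 10 listed genes, and it was called higher, from 6.98 to 23.0 in control and from 16.6 to 29.5 in STZ retinas. Rod markers (5 of 12 with a probe, all above the limit, 2 called higher) ran from 179 to 407 and from 321 to 503.

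Lens markers (5 of 8 with a probe, 4 called higher) ran from 64.7 to 115 in control and from 140 to 333 in STZ retinas at 3 months, without overlap. The part of these tissues and cells in the differences of the subunits was not tested. At 1 month the amacrine list ran from 62.3 to 84.2 in control and from 56.2 to 103 in STZ retinas.

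To see which genes varied most like each subunit, the mean of each group was subtracted and the tested member probes were correlated with 2811 other tested genes over the 24 arrays. The nearest to Gabra4 were Cspg4 (r = 0.96), Clock and Hpn (both r = 0.94), and to Gabra5 Sult1d1 (r = 0.91), Dnase2 and Cyp21a1 (both r = 0.90). Gabrg1 varied most like Mmp14, Ppp1r12a (both r = 0.87) and Acp3 (r = 0.85), and Gabrr1 like Kdr (r = 0.89), Abcc1 and Pgk1 (both r = 0.88). For Gabrr2 they were Vdac1, Dbp (both r = 0.87) and Slc45a1 (r = 0.86). Gabrb1 was the least followed, with Sart1 at 0.78, Khdrbs1 at 0.70 and Stau1 at 0.69. The 24 points share the spread and brightness of their arrays, and without 3 month control 2 the values for Gabra4 and Cspg4 and for Gabrg1 and Mmp14 were 0.95 and 0.80.

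**Figure D5:**
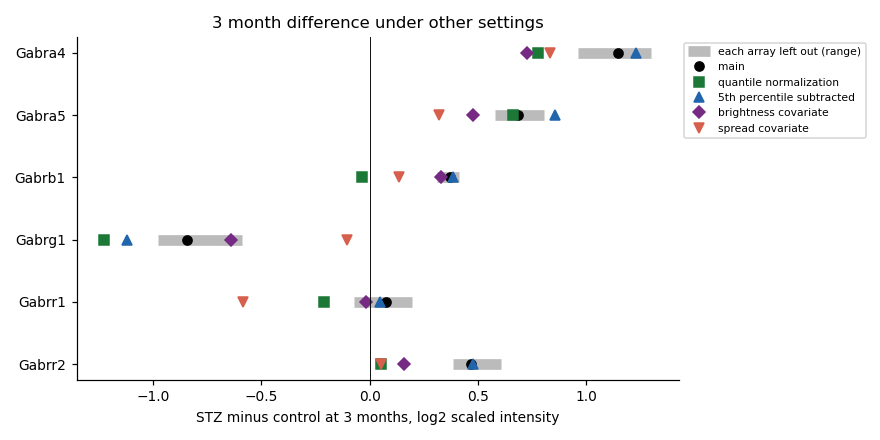
Difference between STZ and control retinas at 3 months in log2 scaled intensity for the 6 tested genes, as reported (black circle), under 4 other settings (coloured) and over the range with each of the 24 arrays left out (grey bar). Gabra4 and Gabra5 stay right of 0 and Gabrg1 left of it in all of them, while Gabrr1 falls on both sides and Gabrb1 lies at -0.03 after quantile normalization.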

How the data were processed

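Retinal RNA of rats was hybridized to 24 CodeLink arrays, and 9 probes of the 7 subunit genes were followed among 33849 rat probes (62 more were bacterial). According to the methods, arrays were scanned, spots with manufacturing defects removed, the local background taken off and an intra-array normalization applied. Deposited were the background-subtracted and the normalized intensity, both linear, in files per array and in a series-level table (0 values differed by more than 1e-06). A genome build is not given in the sources used here. In 1 array file the probe column carried another heading, so columns were read by position, and 3 arrays lacked 1 probe each, none of a member.

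Here the background-subtracted intensity was divided by the median rat probe of its array, a floor of 0.01 was set and log2 taken. Probes with a scaled median over 24 arrays above the 35th percentile (0.554) and at least 4 values per group were tested (22025). A limma model (limma 3.58.1, R 4.3.3) held the 4 groups, with the difference of the effects as an interaction, and Benjamini-Hochberg adjustment over all probes. Interactions were called at an adjusted p under 0.05 alone. The model was tested on simulated data. The number of arrays and the signal over background limit the precision. The labels call the arrays of a group biological replicates, but the paper lists fewer control rats at 1 month than there are control arrays, so p-values measure the spread between these arrays. Figures were drawn with matplotlib 3.10.9.

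Of 4675 probes with a symbol, 3142 were tested. Named were all members, of each pathway list the called genes and those with the highest and lowest difference at 3 months, and the 3 tested genes most correlated with each member, apart from the genes not reported. The marker lists of rod, bipolar, amacrine, horizontal and ganglion cells, Mueller glia, microglia, pigment epithelium, lens and erythrocytes were summed over probes. At 3 months the horizontal cell list (1 of 2 tested genes called lower) summed to between 3.22 and 7.25 in control and 2.88 and 3.88 in STZ retinas, and the microglia list (1 of 2 called higher) to between 3.74 and 7.64 and 4.68 and 6.31. The pigment epithelium list had 0 of 2 called and ranged to 12.9 in control and, on 1 array, to 97.2 in STZ retinas, and the erythrocyte list (1 of 2 called higher) ran from 1.75 to 2.94 and from 1.78 to 2.23. Some genes of these lists enter the counts and medians only, and their own values are not reported here. Members and lists were chosen with earlier results of these data known. The alternatives were the unequal-variance test of the methods (p under 0.01 and 1.2-fold, and adjusted), separate models, a replicate block, quantile normalization over all arrays or within each time, the deposited normalized intensity, the series-level table, subtraction of the 5th percentile, array spread or brightness as a covariate, 2 other filters, a floor of 0.1, a variance trend, array weights, no fold limit, the mean of a gene's probes, and each array left out.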

Additional observations from a re-analysis of the deposited data

Results flagged for a closer look

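The effect of STZ differed between 3 months and 1 month by the limma interaction for Gabra4 (0.98, adjusted p = 0.0321), Gabra5 (0.81, adjusted p = 0.0282) and Gabrg1 (-1.21, adjusted p = 0.0447). The median interaction of all tested probes was 0.44. For Gabra4 and Gabra5 the 3 month controls were the lowest group. For Gabrg1 the 1 month values lay below the detection limit on 11 of 12 arrays, so its interaction does not compare 2 measured effects. The part of array spread, which at 3 months ran from 1.48 to 2.23 in controls and from 2.07 to 2.70 in STZ retinas, cannot be told apart from that of the groups.

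Of 36 groups of 6 arrays examined for a value far from its neighbours, 3 held one, where chance gives about 1 in 20. The Gabra5 value of 3 month STZ 4 was 0.48 and the nearest other array was at 0.84. Without that array the difference at 3 months was 0.75 (adjusted p = 0.00109 in limma). The Gabrg1 value of 1 month STZ 5 was -0.65, the sole 1 month value above the detection limit, with the nearest at -1.82. Without it no 1 month value of Gabrg1 is above the limit, and the interaction was not called (adjusted p = 0.0698 in limma). The Gabrg1 value of 3 month control 2 was 1.89, with the nearest at 0.63, on the array that correlated least with its group.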

How the results depend on the processing

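At 1 month no member and no pathway gene was called under any alternative. At 3 months 5 members were called as reported, 3 by the unadjusted and 2 by the adjusted test of the methods, 3 under either quantile normalization, 2 with array brightness and 0 with array spread as a covariate. Of the pathway genes 19 were called as reported, 3 by the methods' test with or without adjustment, 9 and 7 after quantile normalization over all arrays and within times, 5 with brightness and 0 with spread. Of 3 members called for the interaction, 0 were called after within-time quantile normalization and 0 with spread. The replicate numbers did not pair the arrays, since deviations of same-numbered arrays had correlations from -0.17 to 0.25 at 1 month and from -0.24 to 0.22 at 3 months. With a replicate block 3 members were called, without Gabrb1 (adjusted p = 0.0503) and Gabrr2 (adjusted p = 0.07 in limma). With arrays left out, the called members ranged from 3 to 5 (3 without 3 month control 2 or 3 or 3 month STZ 1, 2 or 3), the pathway genes from 12 to 21 and the interactions from 0 to 3.

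The sign turned for single genes. With quantile normalization over all arrays and within times, the 3 month values were -0.0345 and -0.0344 for Gabrb1, -0.21 and -0.21 for Gabrr1, -0.0105 and -0.0107 for Gad1 and -0.11 and -0.11 for Gphn, and the interactions -0.14 and -0.14 for Gabrb1, -0.0741 and -0.0691 for Gabrr1 and -0.28 and -0.28 for Gabrr2. With spread, the 3 month values were -0.59 for Gabrr1, -0.49 for Plcl1, -0.17 for Slc12a5 and -0.087 for Slc32a1, and the interactions -0.45 for Gabrr1 and -0.30 for Gabrr2. With brightness, Gabra4 was at -0.0255 and the second probe of Gabrr2 at -0.0709 at 1 month, Gabrr1 at -0.0188 at 3 months and the interaction of Gabrr2 at -0.0428. With array weights Glra2 was at 0.0142 and the interaction of Gabrr2 at -0.0456. With an array left out, Gabrr1 ranged from -0.0732 to 0.20 at 3 months, negative without control 2 or 3, and the second probe of Gabrr2 from -0.0044 to 0.0421 at 1 month. The causes were not tested.

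The median of all tested probes at 3 months was 0.44 as reported, 0.16 and 0.14 after the quantile normalizations, 0.19 without a filter and 0.05 with spread. Calls over all probes were 11130 higher and 781 lower as reported, 5424 and 1524 or 4460 and 1076 after the quantile normalizations, and 10879 and 4792 without a filter. The dim probes of Gabrg1, Gabrb2 and the second probes limit what can be read at these signals, and the filter at the bacterial 95th percentile removed Gabrg1.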

Other observations

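Some of the other subunits were too dim for a test. Gabrd, the delta subunit of extrasynaptic receptors, had means of -2.11 ± 0.41 (SD, n = 6) and -1.71 ± 0.69 in control and STZ retinas at 3 months, Gabra6 of -2.56 ± 0.75 and -2.16 ± 0.34 and Gabrp of -1.91 ± 0.44 and -2.00 ± 0.60. The groups overlapped for each of them.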
